A study of Mus musculus with 36 samples.

Results

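TBP, the TATA-binding protein, was mapped at the tRNA genes of mouse chromosome 13 in embryonic stem (ES) cells. A TBP peak summit was taken when it lay on chromosome 13, when the nearest end of any RefSeq gene was within 500 bp, and when that gene was a nuclear tRNA gene. By this rule 309 of the 9335 summits in 4 lists were at chromosome 13 tRNA genes. Pooled over the lists and merged within 250 bp, they formed 121 sites. The rule used position only, so the scores, the isotypes, the side of the gene and the presence in each list were free to vary.

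The study profiled TBP and subunits of TFIID, the factor that brings TBP to RNA polymerase II promoters, by CUT&RUN, in which a tethered nuclease releases DNA around an antibody-bound protein. RT7 cells carry R26CreERT2/+;Taf7flox/flox and RT10 cells R26CreERT2/+;Taf10flox/flox, so the EtOH controls also hold the inducible Cre and the floxed alleles. Cells received ethanol (EtOH) or 4-hydroxytamoxifen (4-OHT), which activates the Cre, from day 1 to day 3, in medium with serum, leukaemia inhibitory factor, CHIR99021 and PD0325901. The series held 36 libraries in 20 groups, of which each line and treatment had 2 TBP libraries and 1 IgG control library, and each of the 2 genotypes was 1 named line. The data analysed here were 1 TBP list per line and treatment, so differences between treatments have no replicate check, and all intervals below cover counting error only. Binding of TAF7, TAF10 and TAF12 was not analysed here and how far the deletion went was not checked. The read depth of the lists is unknown. As a check of the cell type, Nanog, a pluripotency factor, had a TBP summit within 500 bp in all 4 lists (scores 22.7, 11.9, 41.3 and 9.02 in RT7 EtOH, RT7 4-OHT, RT10 EtOH and RT10 4-OHT, an order kept below wherever 4 values are given), whereas Pou5f1, another such factor, had none within that distance in any list.

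Transfer RNAs carry amino acids to the ribosome, and their genes are transcribed by RNA polymerase III. The promoter lies inside the gene, as an A box and a B box that the factor TFIIIC recognises. TFIIIC places TFIIIB, made of TBP, BRF1 and BDP1, just before the start of the gene, and a run of T ends transcription. TAF7 and TAF10 are subunits of TFIID and are not part of TFIIIB. Of the 403 nuclear tRNA genes with coordinates in RefSeq, 105 (26.1%) lie on chromosome 13.

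RefSeq promoter windows of GRCm38.p6 covered 2 of the 105 chromosome 13 tRNA genes. They are shown because both genes had TBP summits beside them and because they let the summits be placed relative to the direction of transcription, which the gene table does not give. Each is printed 5′ to 3′ along the tRNA gene, with the gene in capitals.
n-TAagc16, chr13:21222490-21222789, plus strand: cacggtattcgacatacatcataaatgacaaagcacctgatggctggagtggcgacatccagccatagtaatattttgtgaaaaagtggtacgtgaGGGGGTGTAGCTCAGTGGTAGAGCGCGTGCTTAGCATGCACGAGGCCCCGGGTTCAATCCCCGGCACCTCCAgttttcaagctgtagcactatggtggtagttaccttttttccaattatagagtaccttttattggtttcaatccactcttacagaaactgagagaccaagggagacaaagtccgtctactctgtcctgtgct
n-TVcac9, chr13:23445922-23446221, minus strand: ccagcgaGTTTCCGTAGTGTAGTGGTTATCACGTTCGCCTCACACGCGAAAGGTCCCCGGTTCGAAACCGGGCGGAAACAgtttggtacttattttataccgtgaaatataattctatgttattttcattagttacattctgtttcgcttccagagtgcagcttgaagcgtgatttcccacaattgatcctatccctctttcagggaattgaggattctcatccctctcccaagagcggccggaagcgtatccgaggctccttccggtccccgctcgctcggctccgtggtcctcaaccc

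The motifs searched were the A box and the B box, each by fixed patterns of 11 bases, a TATA box (TATAAA or TATATA) and TTTT, with overlaps between motifs allowed. In the 2 printed windows the positions given are on the strand of the tRNA gene. The direction of each tRNA gene was read from where the A box letters lie. In n-TAagc16, an alanine gene of 72 bp, TAGCTCAGTGG filled bases 8 to 18 of the gene, the anticodon AGC bases 33 to 35, and TTTT began 2 bases after the gene. In n-TVcac9, a valine gene of 73 bp, TAGTGTAGTGG filled bases 8 to 18, the anticodon CAC bases 34 to 36, GGTTCGAAACC bases 52 to 62, and TTTT began 13 bases after the gene. The B box letters as searched were not found in n-TAagc16, and no TATA letters lay before either gene on its own strand within the printed window, which begins close to the n-TVcac9 gene. Over all 32544 RefSeq promoter windows of the same length, both strands searched, 34.3% held A box letters, 0.123% B box letters, 16.8% TATA letters and 78% TTTT.

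At both genes the highest-scoring summits within 500 bp lay before the 5′ end. At n-TAagc16 each list had a summit 187, 191, 207 and 155 bp before the 5′ end, with scores of 14.8, 12.3, 30 and 41.3, which the rule did not count because an end of Gm32420 was nearer. The one summit counted at n-TAagc16 was a lower-scoring one of RT7 EtOH (5.57), at position 21222764, 107 bp after the 3′ end and inside the printed window. At n-TVcac9 the summits of the RT7 EtOH and RT10 EtOH lists lay 161 and 127 bp before the 5′ end, outside the printed window, and scored 25 and 35.3. That of RT7 4-OHT lay 480 bp before the 5′ end, nearer to n-TRacg5, and scored 38.8. RT10 4-OHT had no summit within 500 bp of n-TVcac9. The score of a summit is the authors' −log10 q of TBP over IgG. It is used here only to describe and order summits within a list, and between lists only that order is compared.

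The number of summits at chromosome 13 tRNA genes was nearly the same in the 4 lists, although the lists themselves differed in length. There were 78 among the 2666 summits of RT7 EtOH, 78 among the 1379 of RT7 4-OHT, 77 among the 3102 of RT10 EtOH and 76 among the 2188 of RT10 4-OHT. As shares of their lists these were 2.93% (95% exact Clopper-Pearson interval 2.32 to 3.64), 5.66% (4.5 to 7.01), 2.48% (1.96 to 3.09) and 3.47% (2.75 to 4.33). Each interval covers counting error within 1 list, and summits are not replicates of a treatment, so the intervals do not compare the treatments. The higher share in RT7 4-OHT goes with a shorter list and not with more summits at these genes. Summits at the 298 nuclear tRNA genes of other chromosomes numbered 76, 68, 77 and 88, also 309 in all.

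These summits stood high in their lists. Their median score was 17.1 in RT7 EtOH, 12.6 in RT7 4-OHT, 24.8 in RT10 EtOH and 23.2 in RT10 4-OHT, where the medians of all summits of the same lists were 5.57, 5.52, 5.84 and 5.95. Of them, 30 of 78 in RT7 EtOH (38.5%) lay at or above the 90th percentile of scores, where 10.1% of all summits of the list lie. In RT7 4-OHT 25 of 78 (32.1%) did so, against 10.2% of all summits. In RT10 EtOH the number was 41 of 77 (53.2%), against 9.99%, and in RT10 4-OHT 43 of 76 (56.6%), against 9.92%. At tRNA genes of other chromosomes the same shares were 35.5%, 32.4%, 36.4% and 40.9%. At protein-coding gene ends they were between 7.97% and 11.7%. Low scores were found as well, since the lowest in each list was 2.19, 2.30, 1.70 and 1.89. By percentile rank, with tied scores sharing their average rank, 13, 23, 10 and 13 of the summits fell below the middle of their list. In RT7 EtOH some of these had exactly the list's median score of 5.57.

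**Figure D1:**
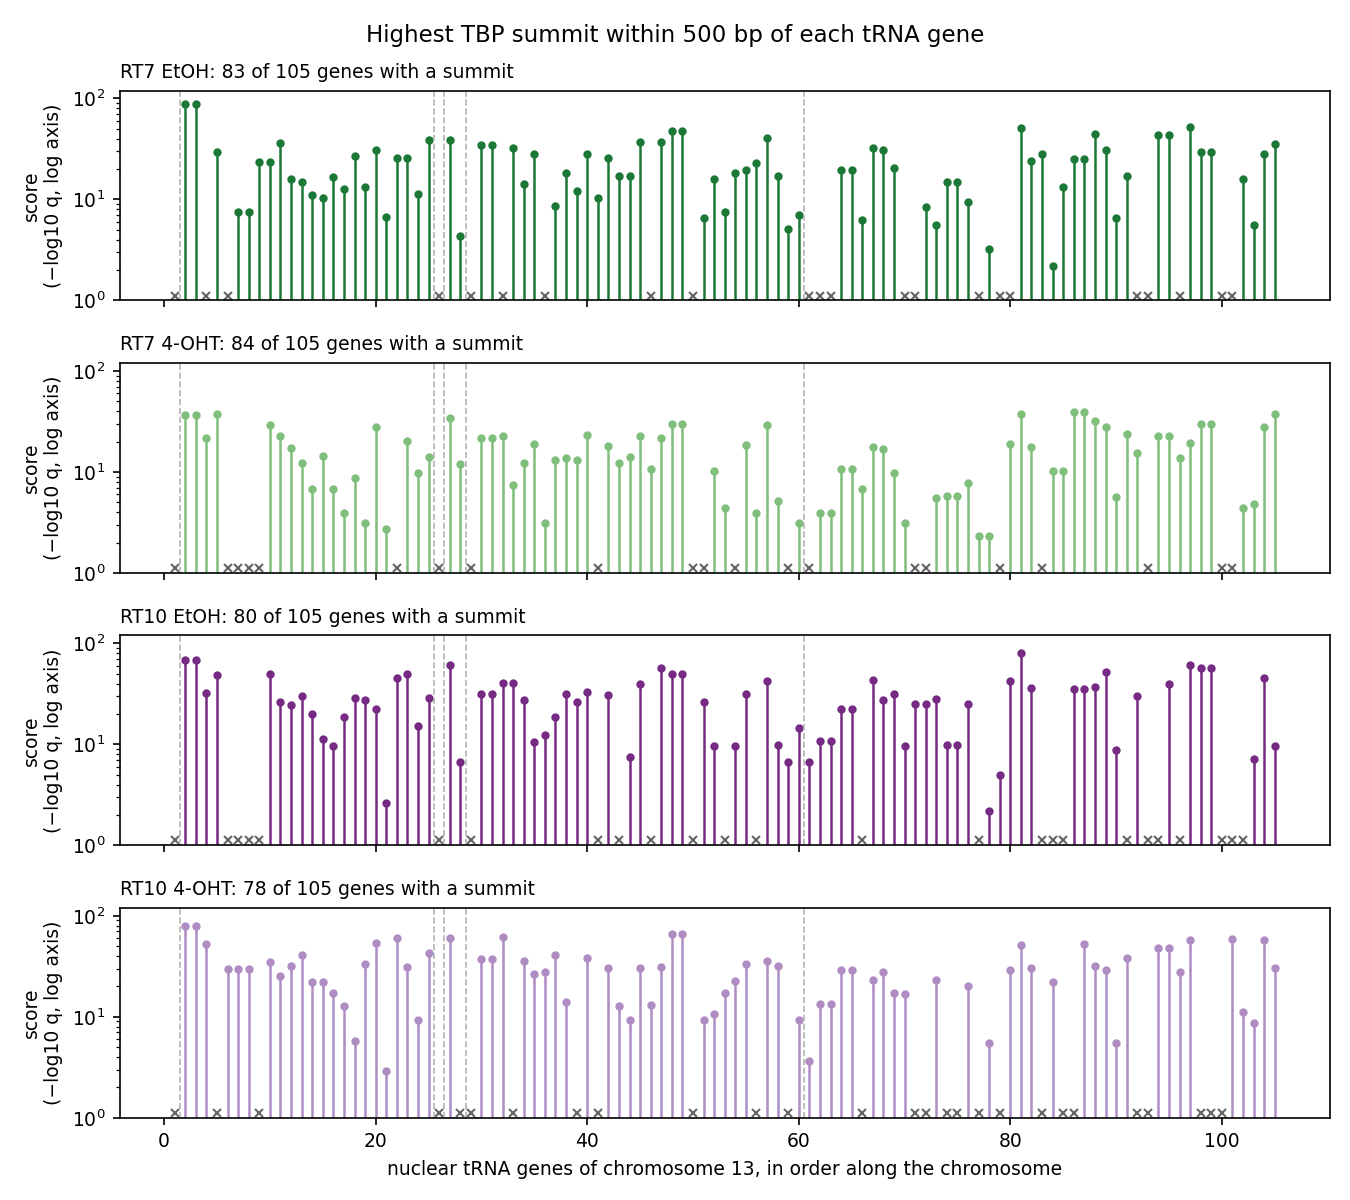
Score (−log10 q over IgG, log axis) of the highest TBP summit within 500 bp of each of the 105 chromosome 13 tRNA genes, in chromosome order, with 1 panel per list; crosses mark genes without a summit and dashed lines the borders between clusters. Genes with a summit number 83, 84, 80 and 78 in the 4 panels, and high and low scores both occur along the large clusters.

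Nearly all summits lay beside the tRNA gene and not in it. The tRNA genes are 71 to 106 bp long, and 2 of the 309 summits fell inside one. These were a summit at n-TEttc5, a glutamate gene, in RT10 EtOH (score 8.72) and a summit at n-TQttg3, a glutamine gene, in RT10 4-OHT (score 2.88). The median distance to the nearest gene end was 164 bp, with quartiles of 123 and 224 bp, and 212 summits (68.6%) lay outside the gene at 100 to 250 bp. Per list the median distance was 176, 161, 164 and 159 bp. At tRNA genes of other chromosomes 4 of 309 summits were inside a gene and the median distance was 181 bp. The rule itself limited the distance to 500 bp, and a gene of this length leaves little room for a summit inside it. These distances are therefore a description, and the share inside is not comparable with that of longer genes. How reads matching several tRNA copies were treated is not known. Why so few summits lay inside the genes was not tested.

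**Figure D2:**
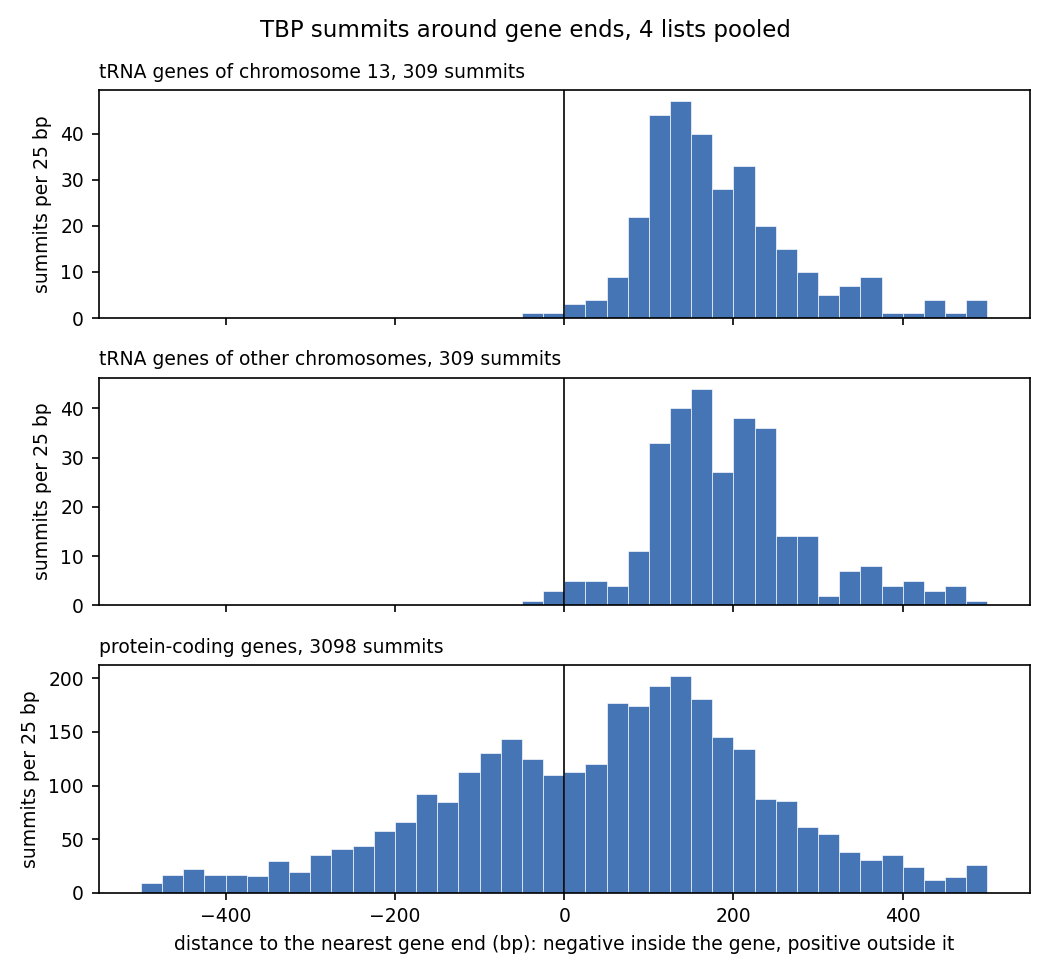
Histograms of the distance in bp from each summit to the nearest gene end, outside positive and inside negative, pooled over the 4 lists for 309 summits at chromosome 13 tRNA genes, 309 at other tRNA genes and 3098 at protein-coding gene ends. Of the summits at chromosome 13 tRNA genes 212 lie 100 to 250 bp outside the gene; the inside range of the tRNA panels is limited by the gene length of 71 to 106 bp, so the panels are not comparable there.

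The gene table gives no strand, so sides are given by coordinate. The lower-coordinate side held 151 summits and the higher-coordinate side 156. The side was mostly the same from list to list for a given gene. Of 40 genes that were nearest to a summit in all 4 lists, 35 had their highest-scoring summit on the same side each time, 20 on the lower and 15 on the higher. The other 5 were n-TAtgc11, n-TEttc5, n-TMcat10, n-TQttg3 and n-TSaga7, and in each of them 1 or more lists had the highest summit on the other side or inside the gene.

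Some genes had a summit on each side. Pooled over the lists this was seen at 33 genes, at 27 of them within 1 list, and at 9 in 2 or more lists. In 7 of these 9 the same side scored higher in each list with both. At n-TLcaa1, a leucine gene with a length of 105 bp, the lower side scored 36.1 and the higher side 6.49 in RT7 EtOH, 26.1 and 4.93 in RT10 EtOH, and 25.7 and 2.88 in RT10 4-OHT, while RT7 4-OHT had only the lower one (22.6). The lower side of n-TLcaa1 was thus the higher-scoring one wherever both were present. At n-TMcat13, a methionine gene, the higher side carried 38.8, 14.1, 28.7 and 42.8 in the 4 lists, in the order RT7 EtOH, RT7 4-OHT, RT10 EtOH and RT10 4-OHT, and the lower side 2.86 and 7.18 in the RT7 lists, while a lower-side summit of RT10 EtOH (4.93) lay 503 bp from the gene and was not counted. At n-TTcgt4, a threonine gene, the lower side scored 11.2, 9.75, 15.2 and 9.33, with 5.57 and 2.44 on the higher side in the EtOH lists. The exceptions were n-TAtgc11 and n-TMcat10, whose higher-scoring side changed between lists.

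Of the 105 nuclear tRNA genes of chromosome 13, most had TBP near them. Within 500 bp of either end or inside the gene a summit was found at 83 genes in RT7 EtOH (79%, interval 70 to 86.4), where 4.61% of all 49993 RefSeq genes have one. The number was 84 in RT7 4-OHT (80%, against 2.61% of all genes), 80 in RT10 EtOH (76.2%, against 5.27%) and 78 in RT10 4-OHT (74.3%, against 3.7%). In at least 1 list 99 genes (94.3%, interval 88.0 to 97.9) had a summit, and in all 4 lists 55 (52.4%, interval 42.4 to 62.2). Of the 298 tRNA genes on other chromosomes 129 (43.3%, interval 37.6 to 49.1) had a summit in at least 1 list and 77 (25.8%) in all 4. Neighbouring genes can share a summit, so these genes are not independent. Counted by nearest gene alone, 69, 68, 67 and 65 of the 105 genes had a summit, and 92 did so in at least 1 list. The 7 genes with a summit within 500 bp but none nearest to them were n-TFgaa4, n-TMcat15, n-TAcgc9, n-TItat14, n-TAagc10, n-TAagc12 and n-TRacg4. For n-TAcgc9 and n-TItat14 the next tRNA gene was 4953 and 10080 bp away. Their summits, present in all 4 lists, were thus nearer to an end of a gene that is not a tRNA gene.

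The 6 genes without a summit in any list were of 4 isotypes. n-TKctt6, a lysine gene at 4224148 to 4224220, stands alone, and its nearest summit was 547410 to 547583 bp away. n-TSgct2, a serine gene at 21492845 to 21492926, also stands alone, 165859 to 165968 bp from a summit. n-TLtaa2, the only gene with the leucine anticodon TAA on the chromosome, was 5866 to 7771 bp from one, and n-TKttt22, a lysine gene, 2123 to 2654 bp. These 4 genes had no summit near them in any list. n-TMcat5, a methionine gene, and n-TStga1, a serine gene, lay closer to one, at 641 to 1015 bp and 581 to 717 bp.

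All 17 isotypes present on the chromosome had TBP at 1 or more genes in at least 1 list. Asparagine, cysteine and histidine genes, which bring the nuclear isotypes to 20, lie elsewhere. Of the 35 anticodons 34 had a summit, the exception being leucine TAA. All 12 alanine, 10 valine, 8 arginine, 8 isoleucine, 7 threonine, 7 glutamine, 6 tyrosine and 3 aspartate genes were bound in at least 1 list, as were both genes of glutamate, glycine, phenylalanine and tryptophan and the single proline gene. Of the genes with other isotypes, 10 of 12 serine, 10 of 11 methionine, 6 of 7 leucine and 3 of 5 lysine genes were bound. Within the isotypes of 5 or more genes, the share bound in all 4 lists ran from 1 of 5 lysine genes (20%) and 2 of 7 glutamine genes (28.6%) to 8 of 12 serine genes (66.7%) and 5 of 7 threonine genes (71.4%). With so few genes per isotype these shares are descriptions of the lists.

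**Figure D3:**
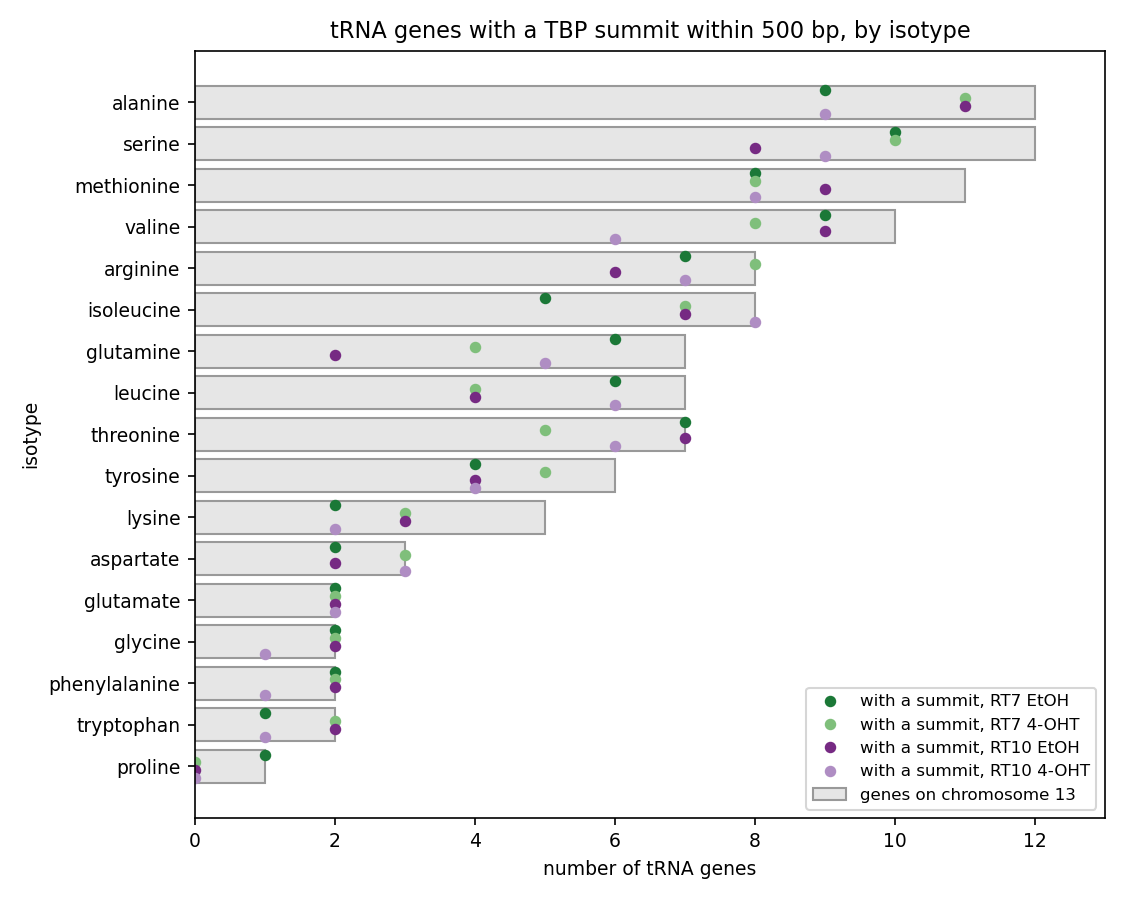
Number of chromosome 13 tRNA genes of each isotype (bars) and number of them with a TBP summit within 500 bp in each of the 4 lists (dots). The dots lie close to the top of most bars, and for glutamine they run from 2 genes (RT10 EtOH) to 6 genes (RT7 EtOH) of 7.

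Genes of one isotype could differ widely in score. The 2 glutamate genes are the clearest case. n-TEctc11 (21160785 to 21160856) carried one of the highest-scoring summits of the chromosome's tRNA genes, at 88.0, 36.6, 69.0 and 79.4, while n-TEttc5 carried 6.49, 5.68, 8.72 and 5.49. Both glutamate genes were bound in all 4 lists, with n-TEctc11 above n-TEttc5 in each. Serine genes with the anticodon AGA had median scores of 37.1, 22.7, 44.8 and 38.7, and those with GCT, for which 3 of 4 genes were bound, 7.1, 4.84, 9.74 and 9.23. Here too the order was the same in each list. The median scores of valine genes were 16.5, 5.76, 10.8 and 22.8 for the anticodon AAC and 25, 17.7, 38.9 and 23.4 for CAC, and the last pair was close. These medians use the highest summit within 500 bp of each gene, which can be nearer to a gene of another isotype. The valine CAC median of RT7 4-OHT includes the n-TRacg5 summit (38.8). The serine AGA medians include n-TDgtc12 summits in both RT7 lists and in RT10 4-OHT (47.4, 29.8 and 66.6). Tyrosine genes, which carry an intron and are 86 to 90 bp long, were bound at 6 of 6 genes in at least 1 list and at 3 of 6 in all 4. All 12 genes longer than 83 bp, which also include leucine CAA, isoleucine and arginine TCT genes, were bound in at least 1 list, 7 of them in all 4.

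The highest site of each list was at n-TEctc11 or at n-TYgta7 or n-TRacg5. The n-TEctc11 site (21160985 to 21161080) lies between n-TEctc11 and the phenylalanine gene n-TFgaa4 (21161405 to 21161477), and ranked first among the chromosome's tRNA gene summits in RT7 EtOH and RT10 4-OHT. n-TYgta7, a tyrosine gene (23432990 to 23433077), had the highest in RT10 EtOH at 80.2, with 37.4 in RT7 4-OHT and 52.0 in RT10 4-OHT. In RT7 EtOH the summit nearest to that n-TYgta7 summit of RT7 4-OHT was 405 bp away, scored 51 and was closer to an end of Gm40833, so it was not counted at the tRNA gene. n-TRacg5, an arginine gene (23446792 to 23446864), led RT7 4-OHT with 38.8. n-TEctc11 was in every list, and where n-TYgta7 or n-TRacg5 lacked a summit the list had one within 405 bp.

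Other sites among the 5 highest of a list were found in both lines. n-TWcca4, a tryptophan gene (23506519 to 23506590), scored 51.8, 19.2, 61.7 and 57.3. n-TGgcc7, a glycine gene (21710580 to 21710650), scored 38.8, 34.4, 61.7 and 60.4, and n-TTagt6, a threonine gene (23450622 to 23450695), 44.5, 31.9, 36.8 and 31.7. These 3 sites were present in all 4 lists. n-TDgtc12, an aspartate gene (21940319 to 21940390), scored 47.4 and 29.8 in the RT7 lists and 66.6 in RT10 4-OHT, and n-TIaat10, an isoleucine gene, 22.6 in RT7 4-OHT, 40.9 in RT10 EtOH and 61.8 in RT10 4-OHT. Both were missing from 1 list within 250 bp.

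The order of the sites was much alike between lists. Of the 121 sites 39 had a counted summit in all 4 lists, 22 in 3, 23 in 2 and 37 in 1. Over the 39 sites, Spearman's rho between the scores of each pair of lists was 0.70 to 0.85, where lists of a line or a treatment share cells or agents and nearby sites share a cluster. Sites in all 4 lists had median scores of 24.3, 17.2, 28.1 and 29.2, and sites in a single list 8.36, 3.43, 7.25 and 4.81. The summits of a site in all 4 lists spanned 117 bp in the median and up to 364 bp, so that lists placed the same site at somewhat different positions.

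Many of the sites absent from a list had a summit of that list close by. Over the 121 sites and 4 lists there were 179 combinations without a counted summit. In 11 of them the list had a summit within 250 bp that was nearer to another gene's end or over 500 bp from the tRNA gene, and with such summits taken in, 42 sites were present in all 4 lists. In 142 of them (79.3%) the list had a summit within 1000 bp of the site, with a median distance over all 179 of 501 bp, in 37 it had none, and in 4 none within 5000 bp. With all 4 lists required within 1000 bp, 95 of the 121 sites (78.5%) were present throughout. Merged within 1000 bp the summits formed 73 loci, of which 46 held all 4 lists, 15 held 3, 8 held 2 and 4 held 1. The 4 combinations beyond 5000 bp belonged to 2 valine sites and 1 isoleucine site. The main site of n-TVaac3 (22015993 to 22016022) scored 18.2 in RT7 EtOH, 9.74 in RT10 EtOH and 22.8 in RT10 4-OHT, but the nearest RT7 4-OHT summit was 5446 bp away. A weaker RT7 EtOH summit on the other side of n-TVaac3 (3.01) was 5936 bp from it. n-TIaat15, the first gene of its cluster, had summits in the RT10 lists (6.77 and 3.68) and the nearest RT7 EtOH and RT7 4-OHT summits were 16019 and 14532 bp away.

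The comparison of 4-OHT with EtOH asks where TBP remained after the treatment that deletes Taf7 or Taf10. At chromosome 13 tRNA genes most EtOH summits had a 4-OHT counterpart in both lines. In RT7, 55 of 78 (70.5%, interval 59.1 to 80.3) had one within 250 bp, where 38.7% of all summits of the list did. In RT10 the number was 55 of 77 (71.4%, interval 60.0 to 81.2), where 48.1% of all summits did. Both intervals lay above the share over all summits. The summits at these genes also scored higher, with EtOH medians of 17.1 (RT7) and 24.8 (RT10) against 5.57 and 5.84 over all summits. The 4-OHT lists were shorter than the EtOH lists, at 1379 against 2666 summits in RT7 and 2188 against 3102 in RT10. Shares were not compared with those of all summits at like scores. At tRNA genes of other chromosomes the shares were 69.7% in RT7 and 83.1% in RT10, and at protein-coding gene ends 41% and 48.6%. The RT7 interval contains the share at other tRNA genes, and the RT10 share lay below it, with intervals of 60.0 to 81.2 and 72.9 to 90.7 that overlapped.

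At a wider distance the shares rose. Within 1000 bp 75 of 78 RT7 EtOH summits (96.2%, interval 89.2 to 99.2) had a 4-OHT summit, against 46% of all summits. In RT10 69 of 77 (89.6%, interval 80.6 to 95.4) did so, against 55.6% of all. The shares at other tRNA genes were 84.2% and 97.4%. The wider distance also takes in summits of neighbouring genes. Within a list the next summit was at a median of 1300, 1214, 1325 and 1619 bp. Among the EtOH summits with no other EtOH summit within 1000 bp, 40 of 47 in RT7 (85.1%, interval 71.7 to 93.8) and 37 of 49 in RT10 (75.5%, interval 61.1 to 86.7) had a 4-OHT summit within 250 bp.

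**Figure D4:**
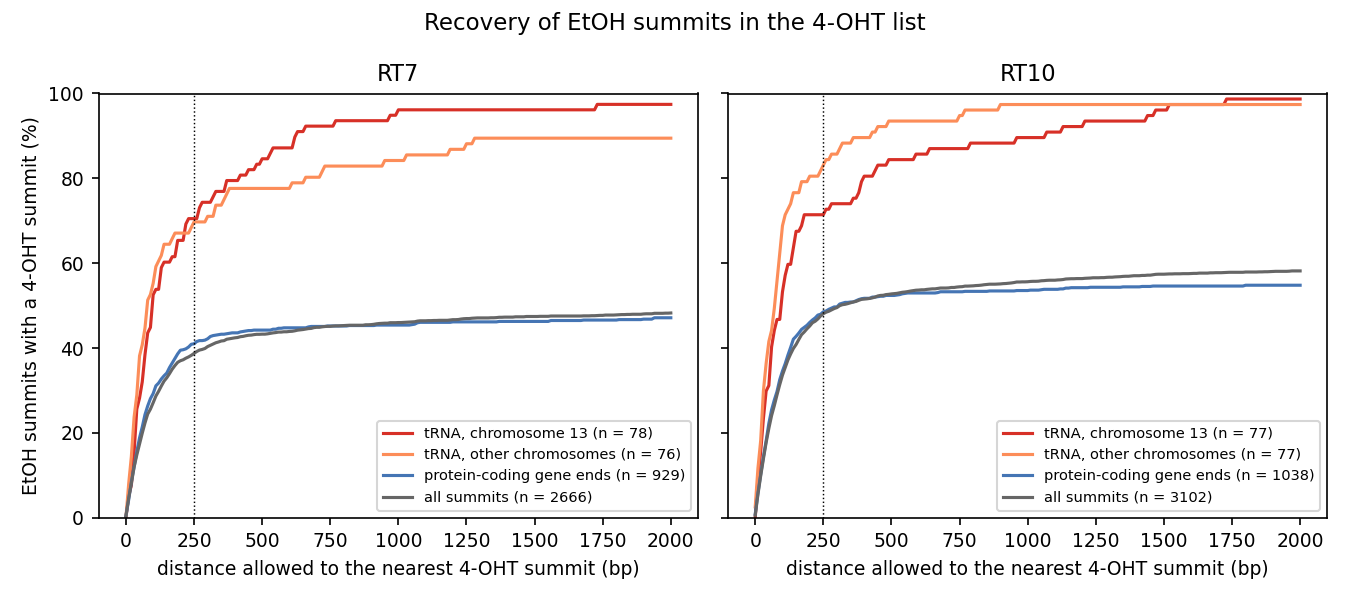
Cumulative percent of EtOH summits with a 4-OHT summit of the same line within the distance in bp on the x axis, for RT7 and RT10, at chromosome 13 tRNA genes, other tRNA genes, protein-coding gene ends and all summits. At chromosome 13 tRNA genes the curve passes 70.5% (RT7) and 71.4% (RT10) at 250 bp and reaches 96.2% and 89.6% at 1000 bp, above the curve of all summits in both lines.

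In the reverse direction, the 4-OHT summits were about as often matched as all summits of their lists at the short distance. Of the RT7 4-OHT summits 53 of 78 (67.9%, interval 56.4 to 78.1) had an EtOH summit within 250 bp, against 75% of all. Of the RT10 4-OHT summits 53 of 76 (69.7%, interval 58.1 to 79.8) did, against 68.1%. Both intervals contain the share of all summits. Within 1000 bp the shares were 93.6% (against 86.8%) and 90.8% (against 78.4%). Matches between the 2 lines under the same treatment were about as frequent. Of the RT7 EtOH summits 69.2% had an RT10 EtOH summit within 250 bp, against 65% of all, and of the RT10 EtOH summits 71.4% had an RT7 EtOH summit, against 55.7%. Between the 4-OHT lists the shares were 73.1% from RT7 (against 68.2%) and 77.6% from RT10 (against 43%). Within 1000 bp these 4 shares were 89.7% (against 74.5%), 90.9% (against 63.5%), 92.3% (against 79.2%) and 96.1% (against 50.6%). The share matched across treatments within a line, 67.9% to 71.4%, thus lay close to the share matched across lines within a treatment, 69.2% to 77.6%, and no difference between these was tested.

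Where no 4-OHT summit lay within 250 bp, the nearest was mostly at the same or a neighbouring tRNA gene. In RT7 there were 23 such EtOH summits, of which 20 had a 4-OHT summit within 1000 bp, 10 of them at the same tRNA gene, 7 at another tRNA gene and 3 elsewhere. In RT10 there were 22, of which 14 had one within 1000 bp, 9 at the same gene, 4 at another tRNA gene and 1 elsewhere. Beyond 1000 bp there were 3 in RT7 and 8 in RT10. Counted by gene and not by distance, 59 of the 78 RT7 EtOH summits (75.6%) and 62 of the 77 RT10 EtOH summits (80.5%) had a 4-OHT summit nearest to the same tRNA gene. In this count 1 4-OHT summit can serve several EtOH summits of a gene.

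The highest EtOH scores without a 4-OHT summit within 250 bp in RT7 were at n-TTtgt4, a threonine gene (25.5), n-TVcac9 (25), n-TQctg7, a glutamine gene (23.3), n-TMcat2 and n-TAagc11 (19.4 each) and n-TVaac3 (18.2). The nearest 4-OHT summits to them were 266, 319, 534, 330, 261 and 5462 bp away. For n-TTtgt4 that summit scored 16.4 and lay 590 bp from the gene, beyond the 500 bp of the rule. For n-TQctg7 it was at n-TLcaa4 (29.2), and for n-TMcat2 at the same gene (18.9). The n-TMcat2 one also lay within 250 bp of another RT7 EtOH summit of that gene (28.1). Apart from that at n-TVaac3, these EtOH summits thus had a 4-OHT summit within 534 bp. The genes n-TTtgt4 and n-TQctg7 had no RT7 4-OHT summit within 500 bp of either end. The next in order were n-TVaac5 (14.8), n-TAcgc10 (13.2), n-TQctg10 (10.4) and n-TLaag5 (7.45), whose nearest 4-OHT summits were 277, 493, 970 and 1722 bp away.

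In RT10 the list of such sites began with n-TGgcc6, a glycine gene (57.1), n-TSaga8, a serine gene (50.2), n-TKctt28, a lysine gene (48.1), n-TSaga7 (39.5) and n-TVcac9 (35.3). The nearest RT10 4-OHT summits were 1463 bp away at n-TQttg4 (58.9), 278 bp at n-TDgtc12 (66.6), 1122 bp at n-TMcat14 (52.6), 373 bp at the same gene n-TSaga7 (48.2) and 383 bp at n-TRacg5 (52.8). For n-TSaga8, n-TSaga7 and n-TVcac9 this was a high-scoring summit within 383 bp, at the same or a nearby tRNA gene. For n-TGgcc6 and n-TKctt28 the nearest one was farther off. The 4-OHT summit at n-TMcat14 also had an RT10 EtOH summit at its own site (32.6). They were followed by n-TWcca3, a tryptophan gene (30.2, nearest 4-OHT summit 2811 bp away), n-TRtct3, an arginine gene (26.1, 1726 bp), n-TVaac2 (25.1, 388 bp), n-TVaac6 (22.6, 394 bp) and n-TVaac5 (9.86, 1436 bp). For n-TWcca3, n-TRtct3 and n-TVaac5, as for n-TGgcc6 and n-TKctt28, no 4-OHT summit of RT10 lay within 1000 bp.

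4-OHT summits without an EtOH summit within 250 bp were in part the partners of these. In RT7 the highest were n-TRacg5 (38.8), n-TYgta7 (37.4), n-TLcaa4 (29.2), n-TIaat10 (22.6) and n-TMcat14 (21.6), at 319, 405, 534, 796 and 989 bp from an EtOH summit. In RT10 they were n-TDgtc12 (66.6), n-TQttg4 (58.9), n-TRacg5 (52.8), n-TSaga7 (48.2) and n-TYgta8 (38.5), at 278, 1463, 383, 373 and 361 bp. All of the RT7 sites and all of the RT10 sites except n-TQttg4 had an EtOH summit within 1000 bp.

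The gap between n-TVcac9 and n-TRacg5 showed the same placement in both lines. The valine gene ends at 23446214 and the arginine gene begins at 23446792, and the printed n-TVcac9 sequence is transcribed away from the gap. The EtOH summits lay near n-TVcac9, at 23446375 in RT7 and 23446341 in RT10, with scores of 25 and 35.3. The 4-OHT summits lay near n-TRacg5, at 23446694 in RT7 and 23446724 in RT10, with scores of 38.8 and 52.8. Each of the 4 lists thus had a single summit in this gap, and the 2 treatments differed by 319 bp in RT7 and 383 bp in RT10. Over the 121 sites, 6 were in both EtOH lists and neither 4-OHT list, and 4 were in both 4-OHT lists and neither EtOH list. The other EtOH sites were at n-TTcgt4 (5.57 and 2.44 in RT7 and RT10), n-TMcat7 (4.31 and 6.77), n-TTagt1 (5.14 and 6.77), n-TVaac5 (14.8 and 9.86) and n-TMcat9 (5.57 and 9.74). The other 4-OHT sites were the lower side of n-TIaat10 (4.84 and 4.16), n-TDgtc13 (10.8 and 13) and n-TRtcg3 (13.7 and 27.8). n-TRtcg3, an arginine gene, and n-TDgtc13, an aspartate gene, were the ones without an EtOH summit within 1000 bp, at 1876 and 1883 bp and at 1518 and 1478 bp in RT7 and RT10. Of the other pairs of lists, 6 sites were in both RT7 lists only, 2 in both RT10 lists only, 3 in RT7 EtOH and RT10 4-OHT only, and 2 in RT7 4-OHT and RT10 EtOH only. With summits that the rule did not count taken in, these 4 numbers were 5, 2, 2 and 2, and those of the same-treatment pairs stayed at 6 and 4.

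**Figure D5:**
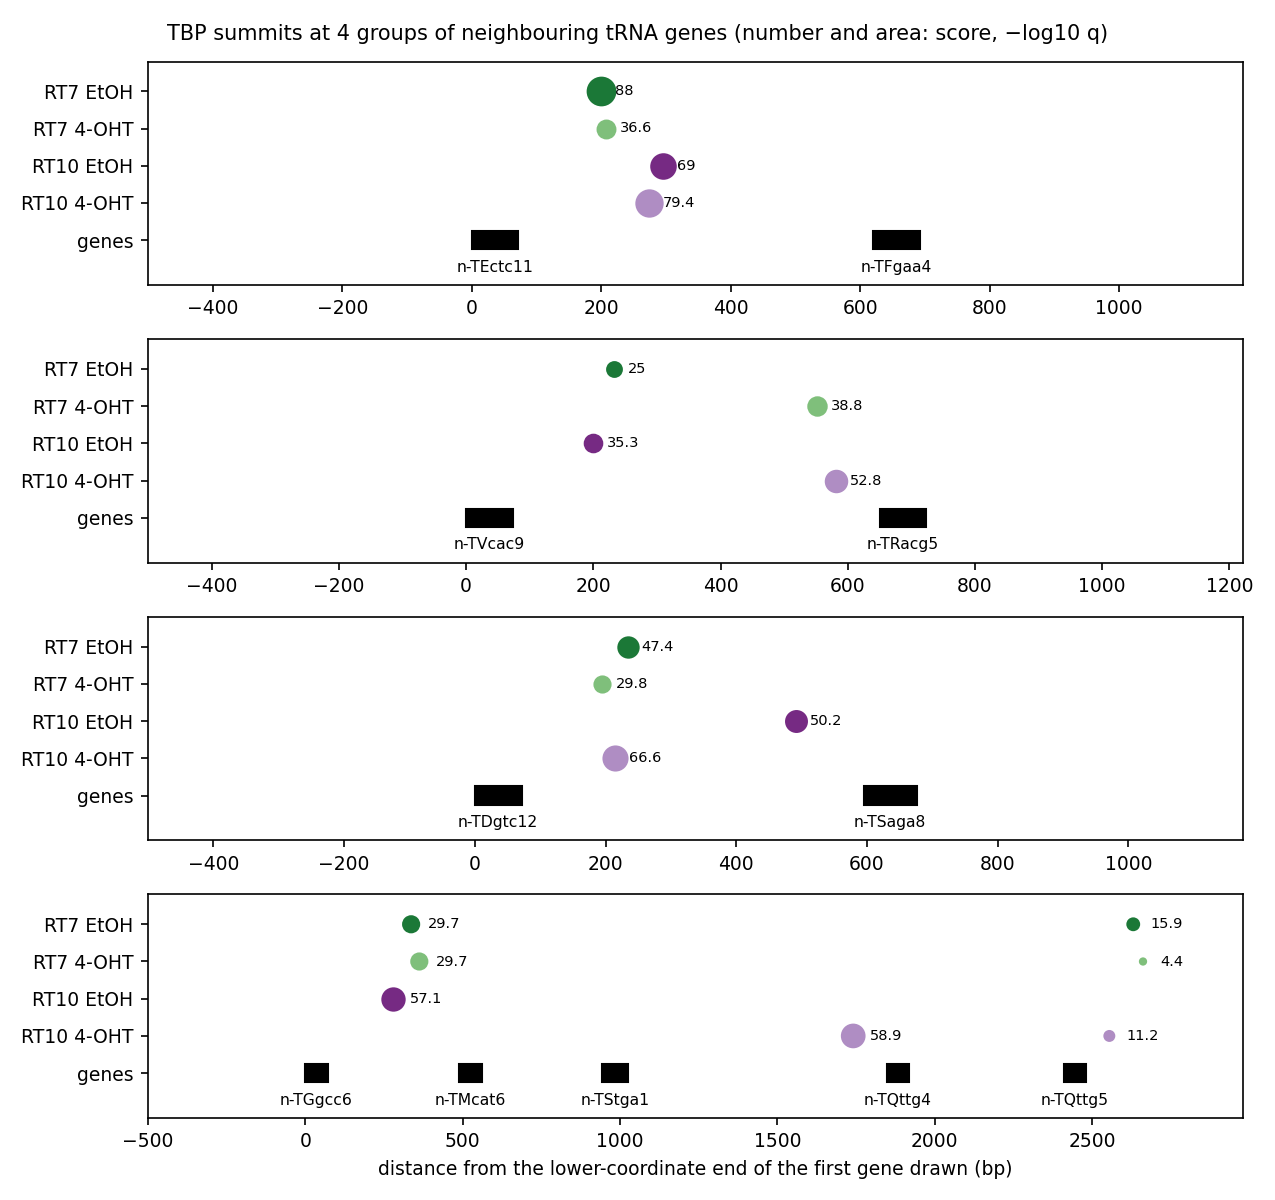
Summits at 4 groups of neighbouring tRNA genes, with 1 row per list, distance along the group in bp on the x axis, boxes for tRNA genes, and dots whose area and number give the score. In the gap between n-TVcac9 and n-TRacg5 the EtOH summits (25 and 35.3) lie nearer to n-TVcac9 and the 4-OHT summits (38.8 and 52.8) nearer to n-TRacg5 in both lines.

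With gaps of up to 100 kb joined, the 105 genes fell into 3 large clusters, 1 pair and 2 lone genes. The first large cluster, from n-TEctc11 to n-TMcat13 (21160785 to 21326789), held 24 genes, all bound in at least 1 list and 17 in all 4. It had 28 sites, 13 of them in all 4 lists, and was the most widely spaced of the 3, at a median of 3667 bp from a gene to the nearest other tRNA gene. Its alanine genes carried n-TAagc17 (11, 6.71, 20.2 and 21.9), n-TAagc18 (16.9, 6.71, 9.74 and 17.1) and n-TAagc19 (13.2, 3.10, 27.4 and 33.1), each present in every list. Its arginine genes n-TRccg3 (15.9, 17.2, 24.8 and 31.7) and n-TRtcg2 (25.6, 20, 49.6 and 31.1) and its threonine gene n-TTcgt2 (30.7, 27.7, 22.5 and 53.4) were likewise in every list. Of its EtOH summits 15 of 22 in RT7 (68.2%) and 18 of 21 in RT10 (85.7%) had a 4-OHT summit within 250 bp. The dense stretch from n-TMcat14 to n-TLcaa4 was less alike between lists. There n-TMcat14 was missing from RT7 EtOH, n-TKctt28 from RT10 4-OHT, and the sites of n-TLaag5, n-TLaag7 and n-TQctg7 were in 1 list each.

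The pair n-TGgcc7 and n-TMcat7 (21710580 to 21711065) followed, with 3 sites. The n-TGgcc7 site was in every list and n-TMcat7 had 2 sites in fewer lists, one at 11.9 in RT7 4-OHT and the other at 4.31 and 6.77 in the EtOH lists.

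The second large cluster, from n-TLtaa2 to n-TSgct5 (21848022 to 22050767), held 32 genes, 30 bound in at least 1 list and 18 in all 4, with 43 sites, 13 of them in all 4 lists. Of its 32 genes 8 are serine genes, to which 9 of the 43 sites and 5 of the 13 in all 4 lists belonged. n-TSaga1 scored 37.1, 21.6, 56.5 and 31.5, n-TSaga5 28.1, 23.1, 32.9 and 38.7, n-TStga2 25.6, 18.1, 31.2 and 30.2, n-TSgct8 15.9, 10.2, 9.74 and 10.7, and n-TSgct5, the last gene of the cluster, 7.1, 3.10, 14.5 and 9.23. n-TQctg8, a glutamine gene, had 37.1, 22.7, 39.5 and 30.4, and n-TVcac8, a valine gene, 40.9, 29.2, 42.4 and 35.8. All 7 were present in each list. n-TTagt4, a threonine gene, scored 34.7, 21.6, 31.3 and 37.3, and n-TIaat11, beside it, had a summit nearest to it in RT10 EtOH only (2.95). The EtOH summits with a 4-OHT summit within 250 bp were 19 of 28 in RT7 (67.9%) and 20 of 27 in RT10 (74.1%).

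The third large cluster, from n-TIaat15 to n-TMcat9 (23270421 to 23530419), was the densest of the 3, with a median of 582 bp between a gene and the nearest other tRNA gene. It held 45 genes, 43 bound in at least 1 list and 19 in all 4, and 47 sites, 12 of them in all 4 lists. The sites in every list included n-TVcac11 (32.1, 17.7, 43.8 and 23.4), n-TIaat9 (30.7, 16.7, 27.4 and 27.8), n-TLcag10 (30.9, 27.9, 52.6 and 29.2), n-TKctt11 (24.3, 17.7, 36.0 and 30.4), n-TMcat12 (20.5, 9.75, 31.3 and 17.0) and n-TRtcg1 (28.5, 27.7, 45.2 and 57.3). They belong to 6 isotypes. The row of tyrosine genes n-TYgta3 to n-TYgta7 had its highest scores at its 2 ends. n-TYgta3 scored 9.39, 7.70, 25.1 and 20.3, n-TYgta4 and n-TYgta6 had a summit in 1 list each (2.30 in RT7 4-OHT and 4.93 in RT10 EtOH), n-TYgta5 scored 3.22, 2.2 and 5.52 in the lists other than RT7 4-OHT, and n-TYgta7 is given above. In this cluster a 4-OHT summit lay within 250 bp of 20 of 26 EtOH summits in RT7 (76.9%) and of 16 of 27 in RT10 (59.3%). The cluster with the highest such share was thus a different one in each line, and no difference between clusters was tested.

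The number of other tRNA genes close by went with presence in all lists only loosely. Of 12 genes without another tRNA gene within 5 kb, 9 (75%) were bound in at least 1 list and 7 (58.3%) in all 4. Of 53 genes with 1 or 2 such neighbours the numbers were 52 (98.1%) and 32 (60.4%), and of 40 genes with 3 or more they were 38 (95%) and 16 (40%). The genes with most neighbours, 6 within 5 kb, were n-TLaag5, n-TMcat15, n-TLaag7 and n-TQctg7, bound in 1 or 2 lists, n-TKctt28 and n-TSgct4. n-TKctt28 was bound in the 3 lists other than RT10 4-OHT (29.7, 37.4 and 48.1) and n-TSgct4 in all 4 (5.57, 4.84, 7.24 and 8.75). Across bound genes, Spearman's rho of score with the number of neighbours was 0.03, 0.17, 0.19 and 0.12 in the 4 lists (83, 84, 80 and 78 genes, which share summits). The chromosome also carries 55 histone genes. Of 9 tRNA genes within 10 kb of one, 7 had a summit in all 4 lists, and of the 96 farther away 48 did. n-TMcat9, the closest at 625 bp, had summits nearest to it in the EtOH lists, as given above, and a summit within 500 bp in every list.

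The limit of 500 bp mattered for a few high-scoring summits. Just inside it lay n-TKctt28 in RT7 4-OHT (488 bp, score 37.4) and in RT10 EtOH (480 bp, 48.1), n-TIaat3 in RT7 4-OHT (492 bp, 3.10), n-TKttt23 in RT10 EtOH (494 bp, 7.73), n-TVaac2 in RT7 EtOH (447 bp, 8.36) and n-TIaat8 in RT10 4-OHT (455 bp, 22.3). Just outside it lay the summits near n-TMcat8 in RT7 EtOH (593 bp, 47.4), RT7 4-OHT (518 bp, 20.6) and RT10 4-OHT (571 bp, 37.1), whereas the RT10 EtOH summit there (26.1) was inside. The rule thus counts n-TMcat8's lower side in 1 list, although all 4 lists had a summit there. Others just outside were n-TVaac2 in RT10 4-OHT (581 bp, 49.5), n-TIaat8 in RT7 4-OHT (511 bp, 11.9), n-TYgta8 in RT10 EtOH (521 bp, 18.7) and n-TMcat13 in RT10 EtOH (503 bp, 4.93).

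The genes that encode the RNA polymerase III machinery are themselves transcribed by RNA polymerase II. Of 36 listed genes for polymerase subunits, TFIIIA, TFIIIB, TFIIIC and SNAPc subunits, Maf1 and Ssb, 5, 2, 1 and 2 had a summit within 500 bp in the 4 lists, where 4.61%, 2.61%, 5.27% and 3.7% of all RefSeq genes had one. Gtf3c6, a TFIIIC subunit, scored 5.57, 1.84 and 5.06 in the lists other than RT10 EtOH. Polr3e, a polymerase subunit, scored 4.68, 3.23 and 1.67 in those other than RT7 4-OHT, and Polr3d 5.57 and 3.10 in the RT7 lists. Polr3gl (2.71) and Polr2l (3.83) had a summit in RT7 EtOH only. None of the listed genes, Tbp, Brf1 and Bdp1 of TFIIIB included, had a summit in all 4 lists.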

How the data were processed

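TBP CUT&RUN was analysed in RT7 and RT10 mouse ES cells. The authors deposited 4 lists of TBP peak summits over IgG, each with a −log10 q-value; the lowest was 1.30. The submitters' processing notes name cutadapt 4.0, Bowtie2 2.4.4, SAMtools 1.15.1, bedtools, deepTools, MACS2 2.2.7.1 and mm10, without roles. How reads matching several tRNA copies were treated, whether the 2 libraries of a group were pooled, and the read depth are not given in the sources used here, and depth therefore gives no precision. Title and treatment label disagree for 2 IgG libraries (RT7 EtOH and RT10 4-OHT); the titles were followed.

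Gene ends came from RefSeq GRCm38.p6, the assembly of mm10, without strand. Ties of distance went to the tRNA gene. The sequence table covers 2 of the tRNA genes, through windows of other genes, so the planned motif shares over tRNA genes were not run. Shares have exact Clopper-Pearson intervals. Between lists only the order of sites by score was compared, by Spearman's rho, and not the level of the scores. With 1 list per group no test was run. Named sites were the 5 highest per list, up to 10 EtOH and 5 4-OHT sites per line without a partner, the highest per isotype, the cluster ends, those with most and fewest neighbours, and summits nearest to the 500 bp limit; others were named after their values were seen. The members and lists were chosen with earlier results of these data known. Alternatives covered distances, score minimum, list length and cluster gap. The software was Python 3.11.15 with pandas 2.3.3, NumPy 2.4.6, SciPy 1.17.1 and, for figures, matplotlib 3.10.9. In 20 simulated lists made from the 2666 RT7 EtOH summits, all summits that had been kept were found. They had been moved by less than the matching distance, so this checks the code and not the data.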

Additional observations from a re-analysis of the deposited data

Results flagged for a closer look

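At 4 sites a summit was present in 1 treatment in RT7 and in the other treatment in RT10, with no summit of any kind in the other 2 lists within 250 bp, so that the 2 lines went opposite ways. With 1 list per group the difference was not tested. The n-TDgtc11 site from position 21911607 had a summit in RT7 EtOH (score 7.05) and in RT10 4-OHT (4.53). The n-TAagc11 site from position 23299160 had one in RT7 EtOH (19.4) and in RT10 4-OHT (29.1). The n-TWcca3 site from position 23497977 had one in RT7 4-OHT (15.3) and in RT10 EtOH (30.2), and the nearest summit of the other 2 lists was 2810 and 2811 bp away. The second n-TSaga7 site, from position 23501146, had one in RT7 4-OHT (13) and in RT10 EtOH (39.5). At the sites of n-TDgtc11, n-TAagc11 and n-TSaga7 the lists without a summit had one 261 to 537 bp away. A further site, at n-TPagg3 from position 23437471 (28.1 in RT7 EtOH and 22.3 in RT10 4-OHT), is not among them, because RT7 4-OHT had a summit at the same place (11.9) that lay 511 bp from the nearest gene end, at n-TIaat8, and so was not counted.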

How the results depend on the processing

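No paired analysis was possible because each group has 1 list without a replicate number and no result comes from a test; for the same reason no replicate could be left out. Of 70 alternative values, 58 stayed within 1.5 times the count reported or within the interval of the share, and 12 did not. With a score of at least 10, RT7 4-OHT kept 45 summits and RT10 EtOH 50. The share of EtOH summits with a 4-OHT summit was 52.6% in RT7 and 53.2% in RT10 within 100 bp, 84.6% and 84.4% within 500 bp, 96.2% and 89.6% within 1000 bp, and 85.1% in RT7 for summits with no other EtOH summit within 1000 bp. Merging within 1000 bp, chosen after seeing the data, gave 73 sites. Joining gaps of at most 20 kb gave 13 clusters and of at most 500 kb 3. Without read depth, an absent summit cannot be told apart from one below the authors' threshold.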
